A study of Mus musculus with 4 samples.

Results

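The respiratory chain was examined in mouse female germline stem cells (FGSCs) after knockdown of the long non-coding RNA Gm26917. Its members were taken by name and gene type, without use of their values. Every gene whose symbol starts with mt- was a member, and so was every protein-coding gene whose symbol starts with Nduf, Sdha to Sdhd, Uqcr, Uqcc, Cox and a digit, or Atp5. One row was kept per symbol, which gave 118 members of 12701 genes. The mitochondrial genome encoded 15 of them, 13 mRNAs and 2 ribosomal RNAs, and the nuclear genome encoded 103.

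The cells were ovary-derived FGSCs in culture that had been infected with lentivirus. They carried a short hairpin RNA against Gm26917 (shGm26917) or a control short hairpin RNA (shNC). RNA-seq of total RNA gave 2 libraries per group, 4 in all. The sources used here do not give the hairpin chosen for the sequenced cells, the number of clones or animals behind them or the age of the mice. The study speaks of biological replicates for this experiment without saying what each replicate was. Whether libraries of 1 group are separate cultures is not stated, so the spread behind each p-value may be technical.

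Oxidative phosphorylation joins products of both genomes. Complex I takes electrons from NADH and complex II from succinate, complex III passes them to cytochrome c, complex IV hands them to oxygen, and complex V uses the resulting proton gradient to make ATP. Complexes I, III, IV and V hold a core that is translated inside the organelle, complex II is wholly nuclear encoded, and assembly factors help to build the enzymes without staying in them.

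The unit throughout is CPM, reads scaled to the depth of their library. The listed genes summed to between 755160 and 771715 CPM per library, and library sizes estimated from the lowest values were about 12850000 to 17940000 reads, only as an approximation. Differences were tested by limma on log2(CPM + 0.5) over all 12701 genes, and a gene was called at a Benjamini-Hochberg adjusted p under 0.05. Gm26917 itself had 136 and 104 CPM in shGm26917 libraries, against 155 and 157 CPM in shNC libraries. It was not called (adjusted p = 0.0696 with limma). The study assessed the knockdown by RT-qPCR, a separate measure that is not part of these values. The downstream neighbour Gm42418 fell to 729 and 687 CPM in shGm26917, against 2882 and 3462 CPM in shNC (adjusted p = 5.57e-05 with limma). Of 18 germline stem cell markers 5 were among the genes analysed here. Ifitm3 (Fragilis) had 52.9 and 52.6 CPM in shGm26917, against 86.8 and 99.6 CPM in shNC, Etv5 stood at 21.2 to 22.2 CPM over the 4 libraries, and Gfra1, Zbtb16 and Uchl1 stood at 2.01 to 5.73 CPM, while Ddx4, Dazl, Pou5f1 and Prdm1 were not among the genes analysed here. Of 18 mast cell markers 9 were among them, from Kit, also a germ cell gene, at 1187 to 1279 CPM and the protease gene Cpa3 at 490 to 823 CPM down to Ms4a2, which had 0.251 and 0 CPM in shGm26917, against 1.82 and 2.29 CPM in shNC. The cells are called FGSCs as labelled.

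For several mitochondrial genes the table also lists a near-identical nuclear copy, an insertion of mitochondrial DNA into chromosome 1. This bears on the values of those genes, because a read from an identical stretch cannot be assigned by its sequence. The first bases of mt-Co2, which encodes a core subunit of complex IV, are shown with the same stretch of 2 nuclear copies. Each line gives 90 bases from the start codon on, from GENCODE M21 transcripts on mm10, and capitals mark bases that differ from mt-Co2.
mt-Co2 (chrM:7013-7102, plus strand): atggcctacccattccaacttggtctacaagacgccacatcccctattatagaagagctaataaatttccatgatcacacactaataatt
Gm28661 (chr1:24615476-24615565, minus strand): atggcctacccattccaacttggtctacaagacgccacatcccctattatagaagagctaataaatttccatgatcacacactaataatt
Gm13341 (chr2:22587873-22587962, minus strand): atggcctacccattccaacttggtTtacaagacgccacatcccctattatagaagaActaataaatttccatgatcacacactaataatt

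Gm28661 was identical to mt-Co2 over all 681 bases that it shares, and Gm13341, at 95.906% identity over the gene, showed 2 differences in the stretch printed. Gm28661 was listed at 6896 and 9173 CPM in shGm26917 libraries, against 7015 and 8546 CPM in shNC libraries. mt-Co2 itself was listed at 343 and 620 CPM in shGm26917, against 515 and 532 CPM in shNC. The more distant Gm13341 stayed between 0.71 and 1.26 CPM. The mitochondrial gene therefore held 4.74% and 6.33% of the CPM of the pair in shGm26917, against 6.84% and 5.87% in shNC, and most of the CPM stood under the nuclear name.

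The same held for 4 further pairs. mt-Co3, another core subunit of complex IV, held 3.53% and 2.43% of the CPM it shared with Gm28437 in shGm26917, against 2.7% and 5.01% in shNC. mt-Atp6, part of the proton channel of complex V, held 9.36% and 9.85% with Gm10925, against 11.47% and 11.84%. For mt-Nd3 with Gm28438 the shares were 12.41% and 11.39% in shGm26917, against 17.59% and 15.32% in shNC. These are small and variable shares of large sums. mt-Nd4l with Gm10222 had 10.81% and 10.83% in shGm26917, against 10.0% and 16.89% in shNC. mt-Co1 differed from these, since its copy Gm29216 matches only its 3′ part, and it held 97.48% to 98.22% of the pair in shGm26917 and 96.87% to 98.18% in shNC. In all, 9 mitochondrial genes had a copy at 95% identity or more, and for 6 of them a copy was among the genes analysed here. mt-Nd4 was identical to Gm28439 over 876 bases, and that copy was not among them. The 2 mitochondrial ribosomal RNAs had no copy at 95% identity or more among annotated transcripts, which were searched on the sense strand only.

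**Figure D1:**
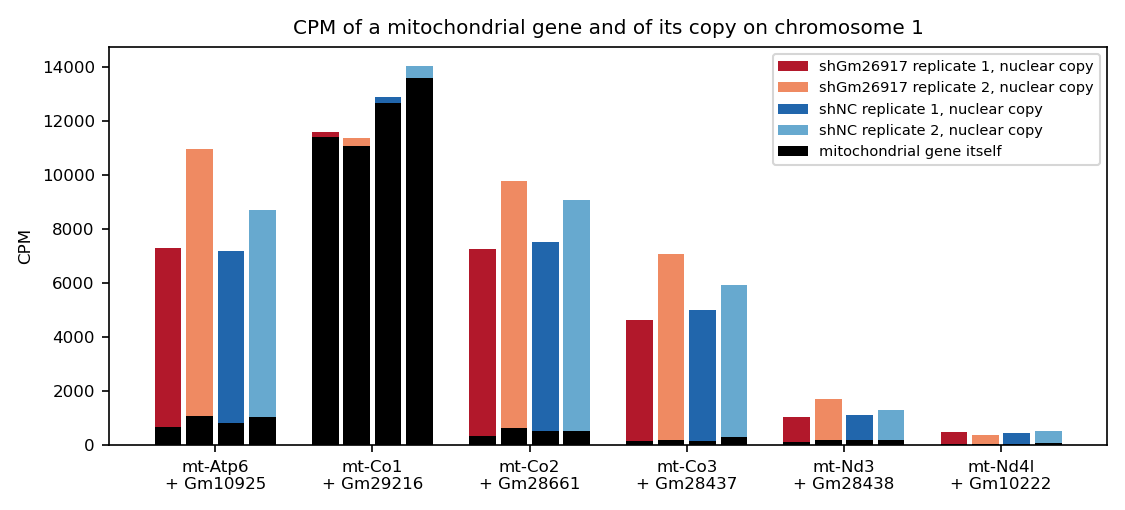
Stacked bars give CPM (linear axis) of 6 mitochondrial genes (black) and of the copy of each on chromosome 1 (colour), with 1 bar per library, the shGm26917 libraries left of the shNC libraries. Only mt-Co1 is mostly black; for mt-Co2 the black part is 4.74% to 6.84% of the bar.

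The 13 mitochondrial mRNAs summed to 34454 and 36468 CPM in shGm26917 libraries, against 33996 and 40196 CPM in shNC libraries, or 4.563% and 4.725% of the listed CPM, against 4.438% and 5.231%. With the 6 copies on chromosome 1 added, the sums were 53958 and 64517 CPM in shGm26917, against 53761 and 64013 CPM in shNC. The groups overlapped either way, and in each group replicate 2 was the higher library. In bulk RNA, fewer cells of a type and less RNA per cell cannot be told apart, here and in all that follows. The copies alone summed to 19503 and 28049 CPM in shGm26917, against 19765 and 23817 CPM in shNC.

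None of the 13 mitochondrial mRNAs passed the test, while across all genes 23.1% did (11.6% higher and 11.5% lower in shGm26917). Their median log2 fold change was -0.12, beside -0.0058 over all genes, and 3 had a positive and 10 a negative value. At an unadjusted limma p under 0.05 mt-Co1 alone passed. Only mt-Co1 and mt-Nd3 had groups that did not overlap, both lower in shGm26917, where 32.7% of all genes had such a pattern in that direction.

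mt-Co1, the catalytic subunit of complex IV and the highest of the members, had 11399 and 11077 CPM in shGm26917, against 12662 and 13595 CPM in shNC. Its log2 fold change was -0.22 ± 0.096 (SE; 95% interval -0.45 to -0.0009), with an adjusted p of 0.133 by limma. mt-Co1 was lower in both shGm26917 libraries than in either shNC library, but short of the call. mt-Cytb, the catalytic subunit of complex III, went the other way, with 6647 and 7572 CPM in shGm26917, against 5678 and 7089 CPM in shNC (log2 fold change 0.16 ± 0.13, adjusted p = 0.398 with limma). Its groups overlapped.

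Among the 7 mitochondrial subunits of complex I, which form its proton-pumping membrane arm, mt-Nd4 and mt-Nd1 were the highest. mt-Nd4 had 4352 and 3981 CPM in shGm26917, against 3981 and 5122 CPM in shNC. mt-Nd1 had 3876 and 4896 CPM in shGm26917, against 3841 and 4759 CPM in shNC. Both genes spread as widely within a group as between groups. mt-Nd2 had 2772 and 2867 CPM in shGm26917, against 2543 and 3154 CPM in shNC, with a log2 fold change of -0.0067. mt-Nd5 had 2831 and 2351 CPM in shGm26917, against 2420 and 2920 CPM in shNC. Neither moved beyond its spread. mt-Nd6 is the only one of the 13 mRNAs read from the light strand, and it overlaps the end of mt-Nd5 on the other strand. It had 98.7 and 87.4 CPM in shGm26917, against 92.7 and 145 CPM in shNC, so that its log2 fold change of -0.32 rested on shNC replicate 2. The sources used here do not say whether counting used strand, so mt-Nd6 is uncertain. The pairs mt-Atp8 with mt-Atp6, mt-Atp6 with mt-Co3 and mt-Nd4l with mt-Nd4 overlap on the same strand. Their values are uncertain too, since strand cannot assign a read from such an overlap.

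The short genes with copies were the least settled. mt-Nd3 had 128 and 193 CPM in shGm26917, against 194 and 200 CPM in shNC (log2 fold change -0.32 ± 0.21). With Gm28438 added its log2 fold change was 0.14, with a 95% interval of -0.55 to 0.84. mt-Nd3 thus changed sign with the treatment of the copy and was called in neither case. mt-Nd4l had 51.1 and 40.4 CPM in shGm26917, against 43.2 and 88.6 CPM in shNC. mt-Co3 had 164 and 171 CPM in shGm26917, against 135 and 296 CPM in shNC, with a 95% interval of -1.96 to 1.45 around its log2 fold change of -0.26. Its 2 shNC libraries lay on either side of both shGm26917 libraries. Adding Gm28437 gave 0.075 for mt-Co3, and adding Gm28661 gave 0.026 (interval -0.34 to 0.40) for mt-Co2, against -0.18 alone. In complex V, mt-Atp6 had 681 and 1078 CPM in shGm26917, against 823 and 1031 CPM in shNC, and a log2 fold change of -0.10 alone and 0.17 with Gm10925. mt-Atp8, a small subunit of the same complex with no listed copy, had 1111 and 1533 CPM in shGm26917, against 1068 and 1264 CPM in shNC (log2 fold change 0.17 ± 0.16). All of these intervals held 0, so neither a change nor its absence was shown.

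Single libraries decided which mitochondrial mRNAs passed. Without shNC replicate 1, which was the lower shNC library for all 13 mRNAs, mt-Co1 (log2 fold change -0.28), mt-Nd4 (-0.30), mt-Nd6 (-0.64) and mt-Co3 (-0.82) were called lower in shGm26917. Without shNC replicate 2, mt-Co3 (0.31) and mt-Cytb (0.32) were called higher, so mt-Co3 was called in opposite directions. Without shGm26917 replicate 1, mt-Atp8 was called higher (0.40), and without shGm26917 replicate 2, mt-Atp6 (-0.44), mt-Co2 (-0.61) and mt-Nd3 (-0.62) were called lower. The median over the 13 mRNAs was 0.026 with the copies summed, an alternative chosen after seeing the data, and 0.073 without shNC replicate 2.

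**Figure D2:**
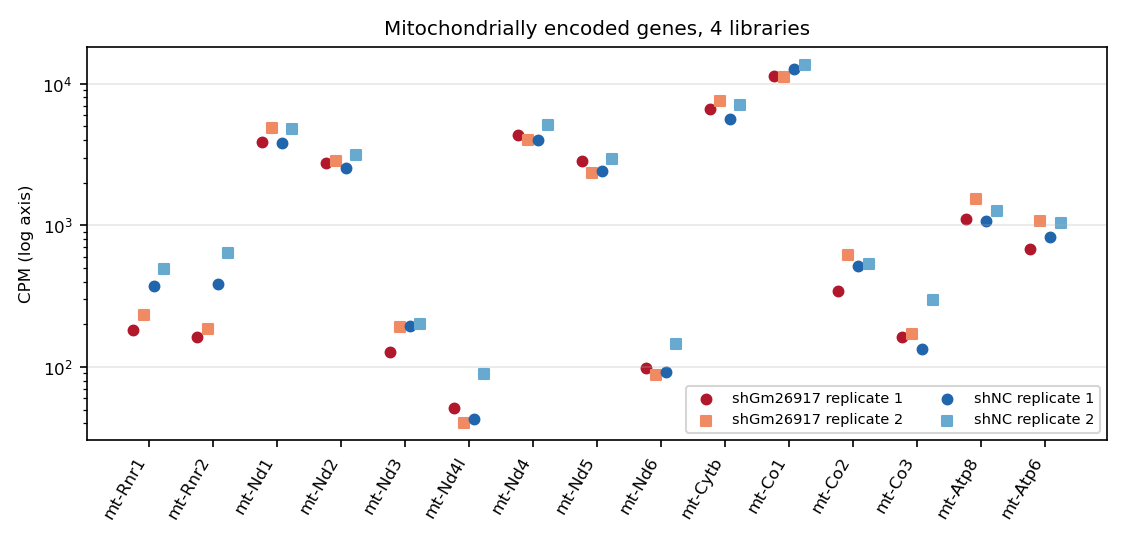
Points give CPM on a log axis for the 15 mitochondrially encoded genes, 1 point per library, with the shGm26917 libraries (red) left of the shNC libraries (blue). The groups of mt-Rnr1 and mt-Rnr2 are apart by a wide margin, from 161 to 231 CPM in shGm26917 and from 371 to 641 CPM in shNC, while most mRNAs overlap.

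The 2 mitochondrial ribosomal RNAs fell. mt-Rnr1, the 12S rRNA of the small mitochondrial ribosomal subunit (chrM:70-1024, plus strand), had 182 and 231 CPM in shGm26917, against 371 and 495 CPM in shNC. mt-Rnr2, the 16S rRNA of the large subunit (chrM:1094-2675, plus strand), had 161 and 186 CPM in shGm26917, against 383 and 641 CPM in shNC. For both, the higher shGm26917 library was under the lower shNC library. The log2 fold change was -1.06 ± 0.18 for mt-Rnr1 (SE, n = 2 per group; adjusted p = 0.0181 with limma) and -1.51 ± 0.30 for mt-Rnr2 (adjusted p = 0.0462 with limma). Together they took 0.0455% and 0.0541% of the listed CPM in shGm26917, against 0.0984% and 0.1479% in shNC. Per kilobase, mt-Rnr1 stood at 335 CPM and mt-Rnr2 at 217 CPM over the 4 libraries, below mt-Co1 at 7886 and mt-Cytb at 5898 CPM.

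The limits of these calls were marked. Without shNC replicate 1 the adjusted p of mt-Rnr1 was 0.137, and without shNC replicate 2 it was 0.218. The call of mt-Rnr2 was lost without shGm26917 replicate 1 (adjusted p = 0.446 with limma) or replicate 2 (0.426), and with 4 other settings that are given under the dependence on processing.

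Other structured RNAs were lower in the same libraries. The list held 20 ribosomal, small structured and neighbouring RNAs, and it counts Gm26917, Gm42418 and the protein-coding gene Lars2. Of the 20, 9 were among the genes analysed here. Of these 7 were called lower and 0 higher, where 11.5% of all genes were called lower. All 9 had groups that did not overlap, where 32.7% of all genes were apart on the lower side. Rnu3b1, Rn7s1 and Rn7s2 stood under 1.003 CPM in both shGm26917 libraries, and Rn7sk did so in shGm26917 replicate 1. These 4 genes reached the level of a listed gene only through shNC, so their direction is no independent sign of a fall. All 4 are among the 7 called lower and the 9 whose groups did not overlap. CT010467.1, annotated as nuclear rRNA, had 9.22 and 8.52 CPM in shGm26917, against 63.0 and 61.9 CPM in shNC (log2 fold change -2.75, adjusted p = 1.07e-05 with limma). AY036118, a lncRNA of the same locus, had 5.74 and 9.27 CPM in shGm26917, against 51.9 and 50.01 CPM in shNC. Both shared a locus with Gm42418. Rn7sk, which encodes the 7SK RNA that holds back transcription elongation, had 0.752 and 1.17 CPM in shGm26917, against 5.84 and 3.77 CPM in shNC. Rn7s1 and Rn7s2, copies of the 7SL RNA of the signal recognition particle, had the same values and count as 1 measurement, with 0.697 and 0.996 CPM in shGm26917, against 8.26 and 3.55 CPM in shNC. Rnu3b1, the U3 RNA of rRNA processing, was listed at 0 in both shGm26917 libraries, against 1.06 and 1.46 CPM in shNC. None of the last 4 belongs to the locus of Gm42418, but all 4 were listed only through shNC. Without shGm26917 replicate 1 the call of Rn7s1 was lost (adjusted p = 0.0917 with limma), and without shNC replicate 1 or 2 that of AY036118 (0.116 and 0.118). Lars2, the mitochondrial leucyl-tRNA synthetase gene, had 178 and 167 CPM in shGm26917, against 577 and 1194 CPM in shNC, and was not called (adjusted p = 0.0599 with limma), although its groups were apart and it was called when either shNC library was left out. The sources used here do not say how ribosomal RNA was removed before sequencing, and the part of rRNA removal in the fall of mt-Rnr1 and mt-Rnr2 was not tested.

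**Figure D3:**
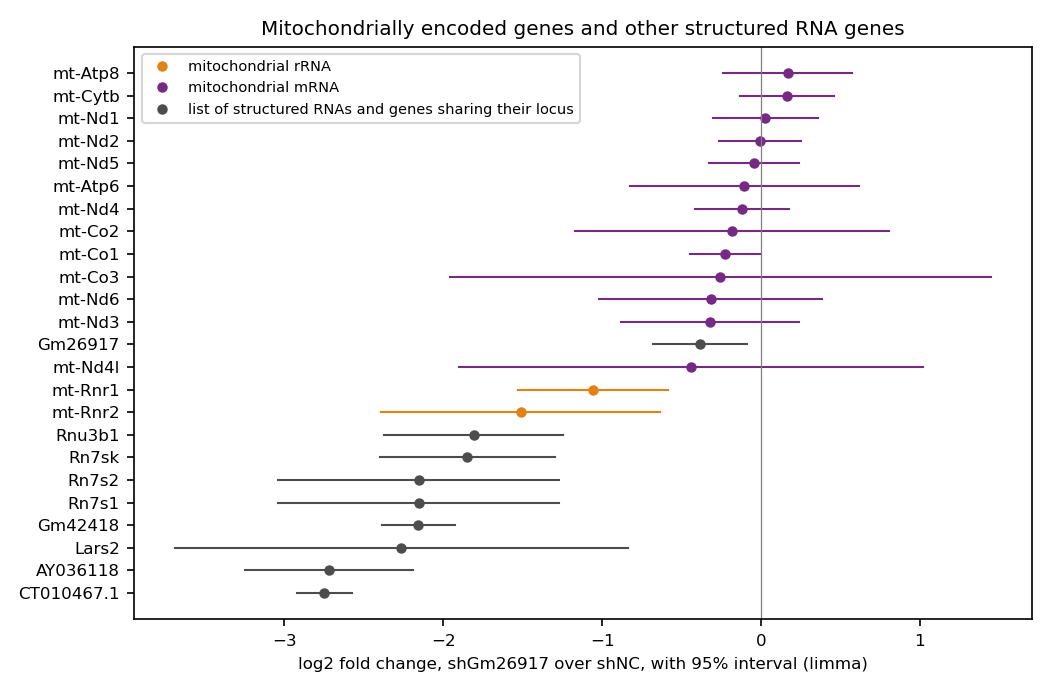
Points give the limma log2 fold change (shGm26917 over shNC) and lines the 95% interval for the 15 mitochondrially encoded genes and the 9 genes of the list of structured RNAs. The 2 mitochondrial rRNAs, at -1.06 and -1.51, lie between the mitochondrial mRNAs and most of the structured RNAs.

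Of the 103 nuclear members, 2 were called higher and 1 lower. With both rRNAs, 5 of 118 members were called (4.24%), against 23.1% of all genes. Call shares also differed with transcript length, and the members are short. Among other protein-coding genes that averaged 5 CPM or more, 11.58% of those under 600 bases and 27.05% of those of 1500 bases and over were called. In the same classes 0% and 8.33% of the nuclear members were called. Groups that did not overlap were found in 11 members on the higher side (9.32%, against 31.5% of all genes) and in 23 on the lower side (19.5%, against 32.7%). The median standard error was 0.12 over the members, beside 0.09 over all genes. Of the 103 nuclear members, 78 had a 95% interval within 0.5 of 0 on the log2 scale. So did 8099 of all 12701 genes, and 7581 of the 10034 genes that averaged 5 CPM or more. The nuclear members summed to 5729 and 6477 CPM in shGm26917, against 6136 and 6243 CPM in shNC. The 2 shGm26917 libraries lay on either side of both shNC libraries.

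The median log2 fold change of the nuclear members was -0.013, beside -0.0058 over all genes. Structural subunits had a median of -0.042 (78 genes, 0 called higher and 1 lower), and assembly factors of 0.065 (25 genes, 2 called higher and 0 lower). By complex, the structural subunits encoded in the nucleus had medians of -0.0018 in complex I, 0.040 in complex II, -0.075 in complex III, -0.071 in complex IV and -0.076 in complex V. The mitochondrial mRNAs had medians of -0.12 in complex I, 0.16 for the single gene of complex III, -0.22 in complex IV and 0.032 in complex V. No complex stood out by its calls in either genome, and the difference between complexes was not tested.

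**Figure D4:**
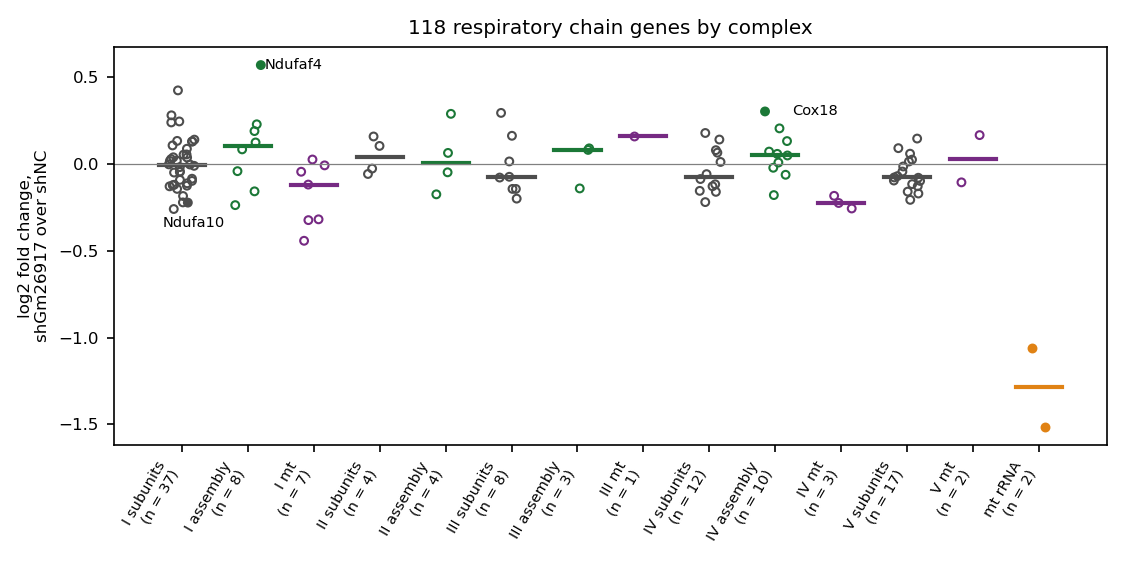
Each point is the log2 fold change (shGm26917 over shNC) of 1 of the 118 genes, by complex and by kind (nuclear structural subunits, nuclear assembly factors, mitochondrial mRNAs), with a bar at the median and filled points for called genes. Ndufaf4 and Cox18 lie above and Ndufa10 below 0, and the 2 mitochondrial rRNAs lie lowest.

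Ndufaf4, an assembly factor that acts early in building complex I (chr4:24898083-24905001, plus strand), had 57.0 and 60.9 CPM in shGm26917, against 35.8 and 43.6 CPM in shNC. It averaged 58.9 ± 2.75 CPM in shGm26917 and 39.7 ± 5.5 CPM in shNC (SD, n = 2 each), a log2 fold change of 0.57 ± 0.094 (adjusted p = 0.0062 with limma). Both shGm26917 libraries were above both shNC libraries. Of the 118 members it alone was called under all 14 other settings, with log2 fold changes of 0.43 to 0.71 when single libraries were left out. The other 7 complex I factors with the prefix Ndufaf were not called, from Ndufaf1 at 0.23 to Ndufaf2 at -0.24 on the log2 scale.

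The stretch just upstream of Ndufaf4 is shown because it carries a motif tied to this pathway. NRF1, nuclear respiratory factor 1, is a transcription factor known to bind promoters of many respiratory chain genes at a GC-rich palindrome. The 150 bases before the start site, from the RefSeq annotation on GRCm38.p6, are printed with matches to the core in capitals.
Ndufaf4 (chr4:24897933-24898082, plus strand): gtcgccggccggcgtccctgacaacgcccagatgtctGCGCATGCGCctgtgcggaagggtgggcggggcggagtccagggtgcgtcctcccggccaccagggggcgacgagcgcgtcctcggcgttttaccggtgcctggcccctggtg

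The core GCATGCGC was read on both strands, and its 2 matches here overlap in 1 palindrome. Windows from 250 bases before to 50 bases after the start were available for 85 of the 103 nuclear members. At least 1 window held the NRF1 core in 12 of the 85 (14.12%), against 824 of all 27025 genes (3.05%). The ETS core CCGGAAG, read by GABP among others, was found in 27 of the 85 (31.76%), against 9.93% of all genes. The YY1 core AAGATGG was found in 14 (16.47%), against 7.28%, and the E-box CACGTG, bound by MYC among others, in 6 (7.06%), against 8.09%. These are matches of letters and not sites shown to be bound. The 27025 genes were not limited to the 12701 analysed here or matched for base composition, so whether the shares are particular to the chain was not tested.

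Cox18, which inserts the C-terminal part of mt-Co2 protein into the inner membrane (chr5:90214724-90224001, minus strand), had 32.7 and 33.8 CPM in shGm26917, against 25.05 and 28.7 CPM in shNC. Its log2 fold change was 0.30 ± 0.081 (adjusted p = 0.0333 with limma). The groups did not overlap, but the call was lost without shGm26917 replicate 1 (0.0661), shGm26917 replicate 2 (0.13) or shNC replicate 1 (0.063). The remaining 9 assembly factors of complex IV were not called. Cox10 and Cox15, which make the haem of the enzyme, had log2 fold changes of 0.073 and 0.050, with 18.3 to 18.6 CPM in shGm26917, against 17.45 to 17.54 CPM in shNC for Cox10. Cox17 and Cox11, which carry copper, were at 0.0096 and -0.061. Sdhaf2, the factor that attaches FAD to Sdha, had 22.6 and 23.2 CPM in shGm26917, against 26.3 and 25.4 CPM in shNC (log2 fold change -0.17, adjusted p = 0.114 with limma). It had the smallest p of the assembly factors that were not called.

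Ndufa10, an accessory subunit of complex I (chr1:92439010-92473860, minus strand), had 70.9 and 71.5 CPM in shGm26917, against 81.9 and 84.3 CPM in shNC. Its log2 fold change was -0.22 ± 0.053 (adjusted p = 0.0237 with limma). The groups did not overlap, and the call was lost without shGm26917 replicate 1 (0.141) or replicate 2 (0.13). Ndufs5, an accessory subunit on the intermembrane side, had 18.0 and 20.1 CPM in shGm26917, against 15.9 and 15.2 CPM in shNC (log2 fold change 0.28, adjusted p = 0.056 with limma). Ndufs8, a core subunit that carries iron-sulfur clusters, had 26.9 and 29.4 CPM in shGm26917, against 33.6 and 32.1 CPM in shNC (log2 fold change -0.22, adjusted p = 0.0646 with limma). Both were short of the call, although Ndufs5 was called higher with median-ratio scaling (adjusted p = 0.0493 with limma), upper-quartile scaling (0.0453) and library sizes without mitochondrial genes (0.0479). Ndufs5 has a processed copy, BC002163, at 99.373% identity, and with its CPM added the log2 fold change was 0.18. The core subunit Ndufs1 had a log2 fold change of 0.030, with a 95% interval of -0.11 to 0.17. Of 37 nuclear subunits of complex I, 17 had positive and 20 negative values.

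Complex II had the smallest median standard error of the 5 complexes among nuclear structural subunits. Sdha, its flavoprotein, had 196 and 194 CPM in shGm26917, against 210 and 187 CPM in shNC, with a 95% interval of -0.19 to 0.13 for the log2 fold change. Sdhb, the iron-sulfur subunit, had 73.6 and 79.8 CPM in shGm26917, against 68.0 and 69.0 CPM in shNC (log2 fold change 0.16, adjusted p = 0.0987 with limma). Sdhc, a membrane anchor, had 61.8 and 64.2 CPM in shGm26917, against 58.6 and 58.4 CPM in shNC (0.11, adjusted p = 0.211 with limma). Both had groups that did not overlap, and Sdhd, the other anchor, had groups that did. The median standard error of the 4 genes was 0.065, and all 4 intervals were within 0.5 of 0.

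In complex III, Uqcrfs1, the Rieske iron-sulfur protein, had 63.5 and 66.3 CPM in shGm26917, against 69.4 and 74.1 CPM in shNC (log2 fold change -0.14, adjusted p = 0.131 with limma). The core proteins Uqcrc1 and Uqcrc2 were at 0.016 and -0.077. The small subunit Uqcr10 had 30.8 and 40.2 CPM in shGm26917, against 25.9 and 31.5 CPM in shNC. Uqcrb, another small subunit, had 29.2 and 38.2 CPM in shGm26917, against 35.8 and 41.2 CPM in shNC. For both, the shGm26917 libraries differed from each other by more than the groups did, by 0.38 on the log2 scale against fold changes of 0.30 for Uqcr10 and -0.20 for Uqcrb.

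In complex IV, Cox6b1, a subunit facing the intermembrane space, had 78.0 and 88.4 CPM in shGm26917, against 95.04 and 98.4 CPM in shNC (log2 fold change -0.22, adjusted p = 0.0609 with limma). Cox4i1, the common isoform of a regulatory subunit, had 125 and 126 CPM in shGm26917, against 146 and 135 CPM in shNC (-0.15, adjusted p = 0.0982 with limma). Both were lower in each shGm26917 library and short of the call. The isoforms differed in level. Cox6a1, the common form, stood at 141 CPM per kilobase over the 4 libraries and Cox6a2, known as the heart and muscle form, at 16 CPM per kilobase. Cox6a2 had 10.0 and 11.9 CPM in shGm26917, against 10.2 and 11.5 CPM in shNC. Cox8a had 90.1 and 117 CPM in shGm26917, against 107 and 123 CPM in shNC. Cox7a2 had 48.1 and 67.5 CPM in shGm26917, against 58.5 and 65.3 CPM in shNC. The spread in shGm26917 exceeded the gap between the groups in both. Cox7a2l, which joins complexes III and IV into supercomplexes, had 65.1 and 71.1 CPM in shGm26917, against 64.3 and 66.3 CPM in shNC. The isoforms Cox4i2, Cox6b2, Cox7a1, Cox8b and Ndufa4l2 were not analysed here.

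In complex V, Atp5b, the catalytic beta subunit and the highest nuclear member, had 995 and 1000 CPM in shGm26917, against 1110 and 1021 CPM in shNC (log2 fold change -0.094, adjusted p = 0.378 with limma). The 3 genes of subunit c, which builds the rotating ring, encode the same mature protein. Atp5g3 had 94.7 and 102 CPM in shGm26917, against 109 and 118 CPM in shNC (log2 fold change -0.21, adjusted p = 0.0554 with limma). Atp5g1 had 47.9 and 53.7 CPM in shGm26917, against 46.6 and 56.2 CPM in shNC. Atp5g2 was listed at only 5.96 and 9.92 CPM in shGm26917, against 8.56 and 8.37 CPM in shNC. Its processed copy Gm10175 matches it at 100% over 645 bases and was listed at 106 and 115 CPM in shGm26917, against 125 and 122 CPM in shNC. Most of the CPM of the pair thus stood under the pseudogene, and with it added the log2 fold change of Atp5g2 was -0.16 (95% interval -0.32 to -0.005, adjusted p = 0.124 with limma). Of the 103 nuclear members, 20 had a copy at 95% identity over 50% of the transcript, and 5 of these copied genes had a copy in the table. Atp5e, the epsilon subunit, had a log2 fold change of -0.16, and Atp5f1, a subunit of the peripheral stalk, of 0.15.

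The libraries of the shGm26917 group differed from each other in a way that followed transcript length. Of the 103 nuclear members, 95 were higher in replicate 2 than in replicate 1 of shGm26917, with a median log2 difference of 0.17. In shNC 72 were higher in replicate 2, with a median of 0.094. Among the 29 members with a median transcript under 600 bases, all 29 were higher in shGm26917 replicate 2, by a median of 0.38. The median was 0.19 for 600 to under 900 bases (28 members), 0.13 for 900 to under 1500 bases (22 members) and 0.041 for 1500 bases and over (24 members). The members are short, with a median transcript of 821 bases, beside 2842 bases for 9402 other protein-coding genes that averaged 5 CPM or more. Those other genes had medians of 0.26, 0.13, 0.052 and -0.013 in the same length classes, so the pattern was not confined to the respiratory chain. Spearman's rho between length and the difference of the shGm26917 libraries was -0.549 over the 103 members and -0.319 over the other genes, and -0.308 and -0.24 for the shNC libraries, as a description over genes of the same libraries.

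**Figure D5:**
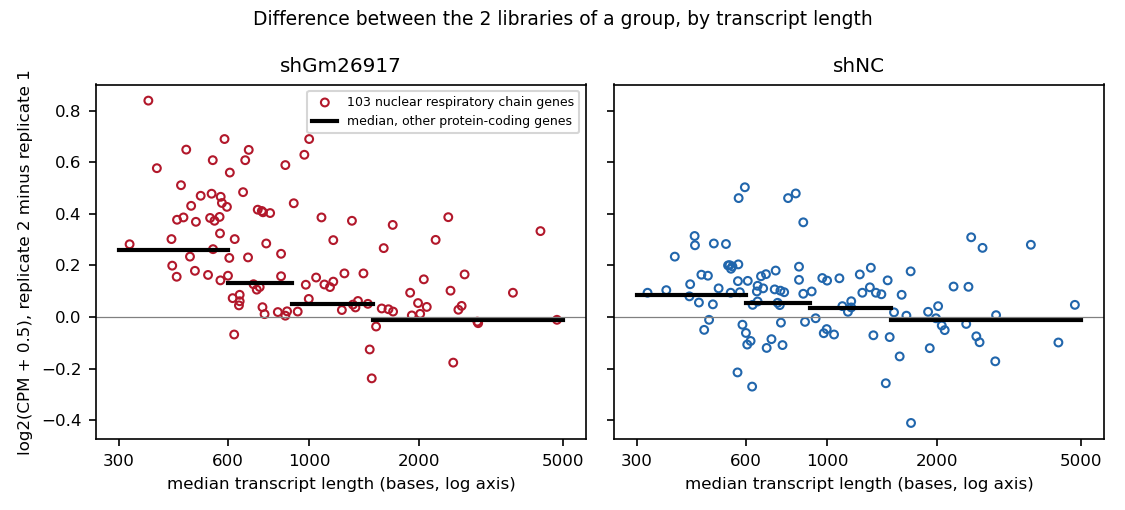
Each circle is a nuclear respiratory chain gene, by median transcript length in bases (log axis) and by the log2(CPM + 0.5) of replicate 2 minus replicate 1, for shGm26917 (left) and shNC (right), with black bars at the medians of the other protein-coding genes in 4 length classes. In shGm26917 all 29 members under 600 bases lie above 0.

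Which shGm26917 library was kept decided the direction of many members. Without shGm26917 replicate 1, 14 members were called higher and 1 lower, where 7.39% and 6.95% of all genes were called. Without replicate 2, 1 was called higher and 11 lower, where the shares of all genes were 5.92% and 6.55%. In these fits the lone shGm26917 library was assumed to vary like the shNC libraries. The 2 sets of 15 and 12 members shared 3, namely Ndufaf4, mt-Rnr1 and Atp5md, a small subunit of complex V chosen here after its values were seen. Atp5md had 41.5 and 74.6 CPM in shGm26917, against 56.3 and 60.6 CPM in shNC. It was called higher without replicate 1 (log2 fold change 0.35, adjusted p = 0.0196 with limma) and lower without replicate 2 (-0.49, adjusted p = 0.0023 with limma). Cox7b showed the same spread, with 58.2 and 94.2 CPM in shGm26917, against 63.8 and 70.4 CPM in shNC. So did Ndufa4, a subunit now placed in complex IV, with 42.5 and 66.9 CPM in shGm26917, against 47.8 and 46.2 CPM in shNC. For Atp5md, Cox7b and Ndufa4 the data give no direction. The other members called higher without shGm26917 replicate 1 were Ndufa6, Ndufb4, Ndufc2, Ndufv2, Uqcr10, Uqcrq, Cox6c, Cox16, Atp5l and mt-Atp8, and the other members called lower without replicate 2 were Uqcrb, Uqcrh, Cox6b1, Cox7a2, Cox7c, Cox8a, mt-Co2, mt-Nd3 and mt-Atp6. Without shNC replicate 1, 3 members were called higher and 10 lower, where 14.1% and 12.9% of all genes were, and without shNC replicate 2, 5 higher and 4 lower, where 13.9% and 13.7% were. With the length trend removed from each library, an alternative chosen after seeing the data, 6 members were called higher and 5 lower, where 13.6% and 14% of all genes were.

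Other genes that serve the chain were called at shares closer to the 23.1% of all genes, without matching for transcript length. Of 11 regulators of mitochondrial biogenesis, 3 rose and 0 fell, with a median log2 fold change of 0.15. Myc, a growth factor-responsive transcription factor, had 235 and 237 CPM in shGm26917, against 135 and 132 CPM in shNC (log2 fold change 0.83, adjusted p = 0.000214 with limma). The coactivators Pprc1 and Ppargc1a rose as well, Pprc1 with 77.7 and 77.6 CPM in shGm26917, against 62.1 and 54.1 CPM in shNC, and Ppargc1a with 9.03 and 9.04 CPM in shGm26917, against 6.72 and 6.53 CPM in shNC. Nrf1, with 22.5 and 23.8 CPM in shGm26917, against 21.5 and 19.7 CPM in shNC, was not called (log2 fold change 0.16, adjusted p = 0.18 with limma), nor was Gabpa (-0.050). Of the 3 calls, 2 were kept without shGm26917 replicate 1 and 2 without replicate 2, Ppargc1a being lost in both.

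Of 19 genes for transcription and replication of mitochondrial DNA, 3 rose and 1 fell, with a median of 0.13. The risen ones were Twnk, the replicative helicase, with 19.7 and 21.7 CPM in shGm26917, against 16.6 and 13.5 CPM in shNC, and Dguok and Tk2, kinases that supply deoxynucleotides inside the organelle (log2 fold changes 0.38 and 0.36). Tfb2m, the initiation factor of the mitochondrial RNA polymerase, fell to 11.8 and 13.4 CPM in shGm26917, against 16.4 and 16.1 CPM in shNC (-0.36, adjusted p = 0.0317 with limma). The polymerase gene Polrmt had a log2 fold change of 0.31 and was not called (adjusted p = 0.0507 with limma). Of the 4 calls, 1 was kept without shGm26917 replicate 1 and 1 without replicate 2.

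Of 41 genes for processing, modification and decay of mitochondrial RNA, 8 rose and 2 fell, with a median of 0.038. Nsun3, which modifies the mitochondrial methionine tRNA, had 23.1 and 22.7 CPM in shGm26917, against 13.2 and 12.6 CPM in shNC (log2 fold change 0.81, adjusted p = 0.00104 with limma). The related RNA-binding genes Fastkd1, Fastkd3 and Fastkd5 rose by 0.38, 0.36 and 0.53 on the log2 scale. Fastk (0.32) and Fastkd2 (0.034), of the same list, were not called. Mrm3, which methylates the 16S rRNA, rose by 0.58, while Mrm1 (-0.038) and Mrm2 (-0.19) were not called. Mtg1, a GTPase of mitochondrial ribosome assembly, rose by 0.46, Prorp, the nuclease of mitochondrial RNase P, by 0.39, and Angel2 by 0.21. Mtpap, the mitochondrial poly(A) polymerase, fell to 42.9 and 45.6 CPM in shGm26917, against 53.8 and 51.3 CPM in shNC (-0.25), and Nsun2, an RNA methyltransferase, was at -0.21 (adjusted p = 0.0345 with limma). Of the 10 calls, 1 was kept without shGm26917 replicate 1, 3 without replicate 2 and 6 without shNC replicate 1.

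Of 25 further subunits and carriers, 2 rose and 3 fell, with a median of 0.010. Pdss1 and Coq2, which make and attach the tail of ubiquinone, rose by 0.66 and 0.42 on the log2 scale. Pdss2, of the same list, had a log2 fold change of -0.014 and was not called. Pdss1 had 7.91 and 9.17 CPM in shGm26917, against 5.52 and 4.94 CPM in shNC. Sqor and Gpd2, enzymes that feed electrons to ubiquinone, and Coq10b, a ubiquinone-binding protein, had log2 fold changes of -0.47, -0.27 and -0.39. All 5 calls were kept without shGm26917 replicate 1 and 1 without replicate 2.

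Of 38 assembly factors with other names, 6 rose and 1 fell, with a median of 0.086. The risen ones were Coa5, Coa7, Ecsit, Lyrm7, Tmem70 and Tmem186, of which Ecsit and Tmem186 serve complex I, Lyrm7 complex III, Coa5 and Coa7 complex IV, and Tmem70 complex V. Tmem70 had 40.7 and 46.0 CPM in shGm26917, against 31.3 and 36.4 CPM in shNC (log2 fold change 0.35, adjusted p = 0.0316 with limma). Phb2, a scaffold of the inner membrane, fell to 126 and 127 CPM in shGm26917, against 144 and 143 CPM in shNC (-0.18). Of the 7 calls, 1 was kept without shGm26917 replicate 1 and 0 without replicate 2, while 6 were kept when either shNC library was left out.

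Of 19 enzymes of the tricarboxylic acid cycle and its entry, 1 rose and 2 fell, with a median of -0.071. Ogdh, the first subunit of oxoglutarate dehydrogenase, had 117 and 115 CPM in shGm26917, against 85.3 and 77.7 CPM in shNC (log2 fold change 0.51, adjusted p = 0.00218 with limma). Mdh2, malate dehydrogenase, fell to 206 and 209 CPM in shGm26917, against 240 and 244 CPM in shNC (-0.22), and Pdhb, a subunit of pyruvate dehydrogenase, fell to 72.3 and 78.5 CPM in shGm26917, against 91.6 and 85.7 CPM in shNC (-0.23). When either shGm26917 library was left out, Ogdh alone of these 3 was called.

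Markers of other cell types were only partly among the genes analysed here. For fibroblasts 8 of 10 were, and for granulosa cells and macrophages 3 of 10 each. The granulosa cell genes were Inhba, Gja1 and Fst, while Foxl2, Amh, Fshr and Cyp19a1 were not among those analysed. Over all genes 11.6% were called higher and 11.5% lower. Of the markers, 3 of 9 mast cell genes were called higher and 3 lower, and 1 of 8 fibroblast genes higher and 1 lower. Of the rest, 3 of 3 granulosa cell genes and 1 of 3 macrophage genes were called lower. Ms4a2 is 1 of the 3 mast cell genes called lower. It reached the level of a listed gene only through shNC, so its direction is no independent sign of a fall. The summed CPM were 2870 and 2921 in shGm26917, against 3058 and 3042 in shNC, for the mast cell genes. For the 3 granulosa cell genes they were 40.7 and 39.9 in shGm26917, against 74.8 and 80.4 in shNC. For the fibroblast genes the sums were 1102 and 1031 in shGm26917, against 1192 and 1232 in shNC, and for the macrophage genes 171 and 166 in shGm26917, against 194 and 170 in shNC. Of 5 germline stem cell markers 1, Ifitm3, was called lower. The part of these cell types in the changes of the nuclear genes was not tested.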

How the data were processed

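Libraries were made from total RNA with a commercial kit, per the labels. Bowtie2 2.1.0, RSEM 1.2.28 and edgeR stand in the processing notes of the submitters, with the build mm10. The authors deposited 1 table of CPM values per gene and library, together with their own fold changes and p-values, which were not used. The second-highest value of a listed gene was never under 1.003 CPM. Only 33.7% to 67.9% of the values under 2 CPM lay within 0.02 of whole reads, so reads were not recovered and no count model was fitted.

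CPM were tested as log2(CPM + 0.5) with limma 3.58.1 in R 4.3.3, with trended and robust empirical Bayes moderation. Fold changes on this scale understate those of low genes. The fit was tested on simulated counts without a length trend or a replicate effect, so that test does not cover these features of the libraries. Of 122 rows matching the rule, 4 repeated a symbol on a patch scaffold and were dropped. Copies were found with BLAST 2.17.0 at 95% identity or more over at least 100 bases of GENCODE M21 transcripts. The search took the sense strand only, so antisense copies and copies outside annotated transcripts could not be found. Lengths are medians over transcripts. For the fit with copies summed, pseudogenes at 99% identity or more were added. Sequences came from GENCODE M21 and RefSeq. The pathway lists leave out genes that are members by name.

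Genes were named by rule: Gm26917 and Gm42418, every mitochondrial gene, every called member, the highest member and the 3 structural subunits with the smallest p of each complex, the 3 assembly factors with the smallest p, isoform groups, called genes of the other lists and every structured RNA. Other genes were chosen after their values were seen. Members and lists were chosen with earlier results of these data known. Alternatives were pseudocounts of 0.1 and 1, 2 scalings, library sizes without mitochondrial genes, a filter of 5 CPM, left-out libraries, the replicate block and plain empirical Bayes. Summed copies and removal of the length trend were chosen after seeing the data.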

Additional observations from a re-analysis of the deposited data

How the results depend on the processing

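The fit described gave 1469 genes higher and 1461 lower, and 2 members higher and 3 lower. Leaving out single libraries gave 752 to 1793 genes higher and 832 to 1735 lower, and 1 to 14 members higher and 1 to 11 lower. The median log2 fold change of the nuclear members then ran from -0.102 (without shGm26917 replicate 2) to 0.102 (without shGm26917 replicate 1), and that of the mitochondrial mRNAs from -0.267 (without shNC replicate 1) to 0.073 (without shNC replicate 2). mt-Co3 ran from -0.821 to 0.311 and was called at both ends. Plain empirical Bayes gave 929 genes higher and 918 lower, and 1 member higher and 2 lower, with Cox18 and Ndufa10 lost. Removal of the length trend gave 1728 genes higher and 1778 lower, and 6 members higher and 5 lower. Median-ratio and upper-quartile scaling each gave 3 members higher and 2 lower, with Ndufs5 gained, and library sizes without mitochondrial genes gave 3 higher and 4 lower, with Ndufs5, Atp5g3 and Cox6b1 gained. The call of mt-Rnr2 was lost with median-ratio scaling (adjusted p = 0.0505 with limma), upper-quartile scaling (0.0567), library sizes without mitochondrial genes (0.0777) and removal of the length trend (0.0964).

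Whether the replicate numbers pair the libraries is not stated. With 2 pairs the correlation of their deviations was 0.112 over 10034 genes and -0.0069 over the 118 members, which cannot settle it. Of the 103 nuclear members, 95 in shGm26917 and 72 in shNC were higher in replicate 2. With the replicate block 1979 genes were called higher and 2003 lower, and 7 members higher and 10 lower. Pseudocounts of 0.1 and 1, the filter and summed copies left 2 members higher and 3 lower. Depth is known only approximately, so limits for low genes were not set.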
